A study of Mus musculus with 8 samples.

Results

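The genes described here encode sodium, calcium, HCN, chloride and TRP ion channels. They were taken by symbol alone: every row of the expression table named as a voltage-gated sodium channel subunit (Scn), a voltage-gated calcium channel subunit (Cacna, Cacnb, Cacng), an HCN channel (Hcn), a ClC chloride channel or transporter (Clcn), or a TRPA, TRPC, TRPM or TRPV channel (Trp). This gave 60 of the 17644 genes in the table, of which 23 are calcium, 17 TRP, 9 sodium, 7 chloride and 4 HCN channel genes. Scn2a1, the older symbol of the neuronal sodium channel Nav1.2, is not covered by the naming pattern and is given among the partner genes only.

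All samples came from 11-week-old male C57BL/6NCrSlc mice in which part of the motor cortex had been aspirated to leave a small cavity. Tissue up to 1.0 mm from the cavity was measured by CAGE, cap analysis of gene expression, a method that sequences short tags at the capped 5' ends of RNA. In the no-delay group (4 samples) the brain was taken right after the lesion, and in the 1-week group (4 samples) a week after it. Both groups carry the lesion, so no uninjured tissue enters the comparison. It asks how tissue beside a fresh cavity differs from tissue beside a cavity that is 1 week old. The labels give separate samples but do not say that each is a separate animal, so p-values measure the spread between these samples.

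Values are in CPM, tags scaled to the same total for every library. A CAGE tag marks one end of one RNA, so CPM does not grow with gene length, but it falls for every gene when other transcripts rise. Library sizes ran from 8278855 to 13998941 reads. The limit that a count of 0 allows, 3 reads, was 0.214 to 0.362 CPM, which covers counting error only. Within each group the libraries are called A, B, C and D, by the alphabetical order of the index tag in their column names, and single values are given in that order; the letters do not pair libraries across groups. Means are given ± SD over the libraries of a group (n = 4 each). A second tag in the column names is the same within each group and differs between the groups, so an effect of what that tag stands for and the effect of time cannot be told apart. A gene was called when the adjusted p of limma's test, Benjamini-Hochberg over all 14718 tested genes, was under 0.05. Fold changes are on the log2(CPM + 1) scale, 1 week over no delay.

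Voltage-gated sodium channels carry the rising phase of the action potential, and voltage-gated calcium channels turn depolarization into calcium entry, which drives transmitter release at nerve terminals and signalling in dendrites. Most types of calcium channel, the T-type not among them, are built on a pore-forming alpha1 subunit with an intracellular beta and an extracellular alpha2delta subunit. HCN channels open on hyperpolarization and set resting excitability, ClC proteins carry chloride across the plasma membrane or exchange it for protons in endosomes and lysosomes, and TRP channels are cation channels opened by lipids, calcium, heat or cell swelling. In cortex most of these genes are known from neurons, and some TRP and ClC genes also from glia, vessels or choroid plexus.

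Calcium channel genes held most of the changes. Of the 60 genes, 51 passed the filter (1 CPM or more in at least 4 libraries), and of these 13 fell and 2 rose, while 36 were not called. Over all tested genes 13.4% were called lower and 23.4% higher, 36.8% in all. Among the tested channel genes 25.5% were lower and 3.92% higher. The 19 tested calcium channel genes included 9 that fell and 1 that rose, a share of 47.4% lower. Among other families 1 of 8 sodium, 1 of 6 chloride and 1 of 14 TRP channel genes fell, and 1 TRP gene rose. The difference in these shares between families was not tested. Median log2 fold changes were -0.23 for calcium, -0.24 for HCN, -0.11 for sodium, -0.04 for TRP and 0.02 for chloride channel genes, against 0.06 for all tested genes. The chloride median turned negative with TMM, median-of-ratios and quantile scaling, with edgeR and DESeq2, and without no-delay library C or D or 1-week library C. The TRP median turned positive with library weights, with neuron-marker scaling and without 1-week library D. Of the 51 tested channel genes, 10 were lower and 2 higher at 1 week with groups that did not overlap. Over all tested genes 12.0% and 22.7% were. These are not the same genes as those called: the 10 included Hcn3, and the 2 were Cacng5 and Clcn7, of which Hcn3 and Clcn7 were not called.

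The scaling of the libraries moved the balance of calls, for channel genes and for all genes. In the 5 alternatives given here the channel genes called higher stayed at 2, while the share of all tested genes called higher was below that of the main test. TMM scaling gave 15 lower and 2 higher channel genes, with 17.6% of all tested genes lower and 20.0% higher. Median-of-ratios scaling gave 16 and 2 (18.5% and 19.5% of all), and quantile normalization gave 24 and 2 (21.8% and 16.7% of all). On whole reads recovered from CPM, edgeR's test gave 15 lower and 2 higher (17.5% and 19.9% of all) and DESeq2's gave 17 and 2 (18.8% and 19.0% of all). Each of these 5 alternatives kept all 13 lower and both higher channel genes.

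**Figure D1:**
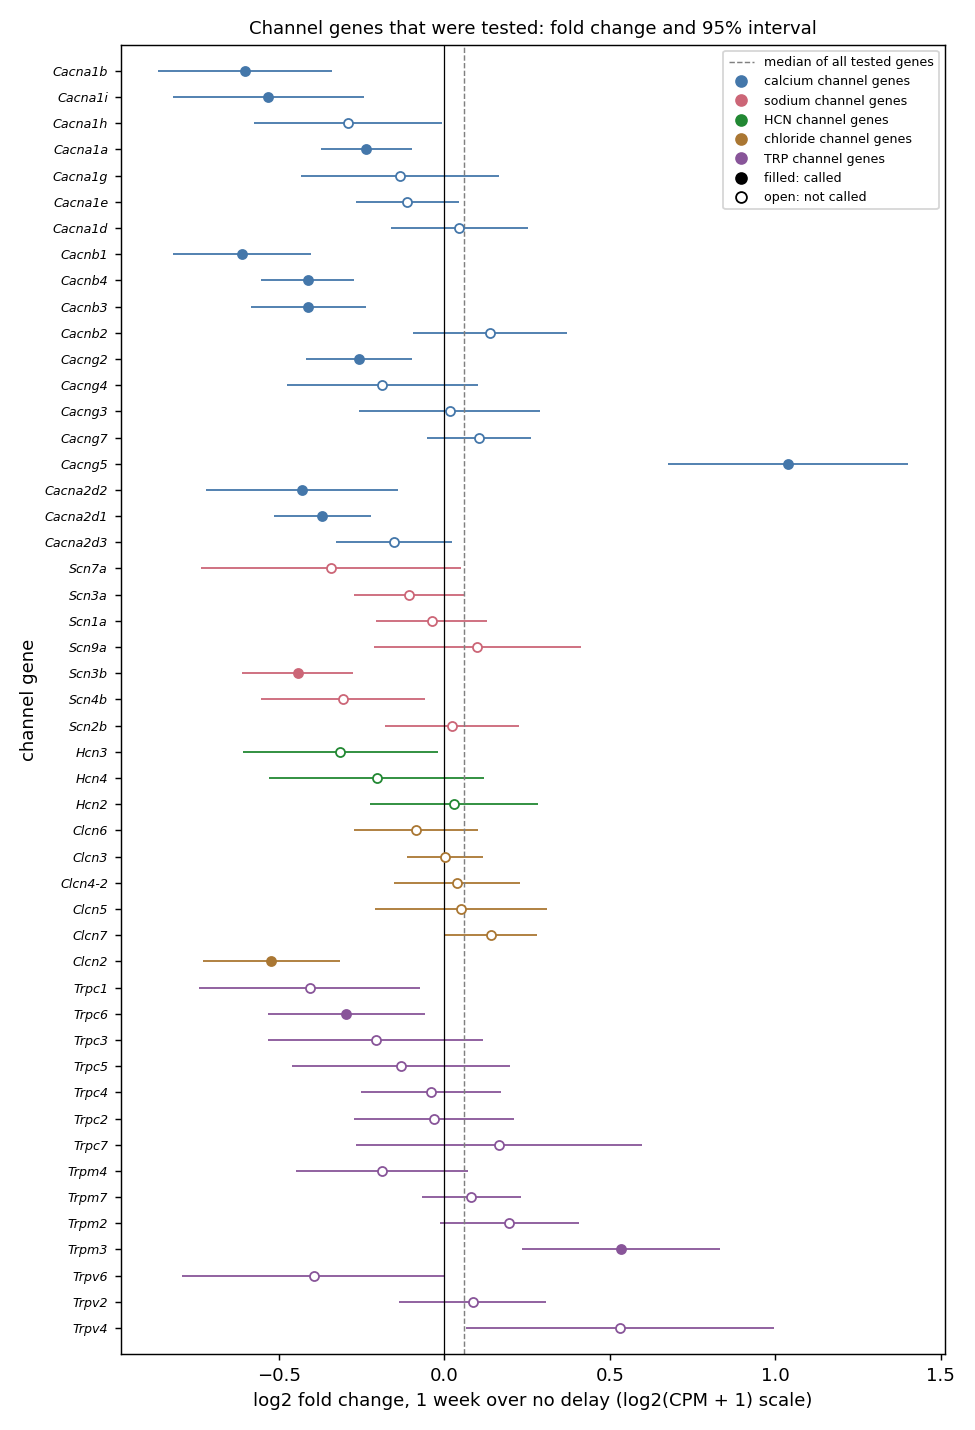
Log2 fold change (1 week over no delay, x axis, log2(CPM + 1) scale) of 49 tested channel genes (y axis), with its 95% interval from limma. Filled points were called and open points were not, colours give the family, and the dashed line is the median of all tested genes (0.06). Calcium channel genes hold 9 of the 12 genes plotted as lower.

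Markers of the cell types in this tissue moved between the same groups. Of 10 general neuron markers 3 were lower and 0 higher, with a summed level of 6935 to 7804 CPM without delay and 6246 to 6792 CPM at 1 week and no marker at 0. Of 5 excitatory neuron markers 1 was lower (Neurod6) and 0 higher. Of 6 inhibitory neuron markers 1 was lower (Sst), 1 was higher (Pvalb) and 4 were not called. All 8 astrocyte markers rose, from a sum of 2226 to 2540 CPM to one of 4527 to 5158 CPM, and all 7 microglia markers rose, from 469 to 477 CPM to 1624 to 2374 CPM. Macrophage and monocyte markers summed to 8.81 to 12.6 CPM without delay and to 128 to 328 CPM at 1 week, and all 4 that were tested, of 6, rose. Among markers of vessels and connective tissue 5 of 6 for endothelium, 4 of 6 for pericytes and smooth muscle and 4 of 5 for fibroblasts rose, and so did 5 of 7 for oligodendrocytes and 3 of 5 for their precursors. The part of these cell types in the levels of the channel genes was not tested. In bulk tissue, fewer cells of a type and less RNA per cell cannot be told apart. When each library was scaled to the mean log2 level of the 10 neuron markers, an alternative chosen after seeing the data, 8 of the 13 lower genes were still called (Cacna1b, Cacna1i, Cacna2d1, Cacnb1, Cacnb3, Cacnb4, Clcn2 and Scn3b). With that scaling 8 channel genes were lower and 5 higher, where 6.68% and 33.0% of all tested genes were.

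Of the 9 pore-forming calcium channel genes 7 were tested, of which 3 fell and 4 were not called. The main pores of presynaptic release, Cacna1b and Cacna1a, were among those that fell. Cacna1b, the pore of N-type channels at nerve terminals, stood at 39.55, 39.9, 43.2 and 38.7 CPM without delay and at 21.9, 22.1, 31.4 and 31.0 CPM at 1 week. The groups did not overlap, and at 1 week libraries A and B were lower than C and D. Its mean went from 40.3 ± 1.97 CPM to 26.6 ± 5.35 CPM, a log2 fold change of -0.60 (standard error 0.12, limma adjusted p = 0.00204).

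Cacna1a, the pore of P/Q-type channels, the other main source of calcium for release, had a log2 fold change nearer to 0. It stood at 144, 146, 158 and 149.9 CPM without delay and at 126, 118, 128 and 136 CPM at 1 week, with no overlap, and its log2 fold change was -0.23 (standard error 0.06, limma adjusted p = 0.0117). This call ended with neuron-marker scaling (adjusted p = 0.243). Cacna1i, a pore of low-voltage-activated T-type channels, stood at 45.6, 49.4, 52.6 and 57.2 CPM without delay and at 35.1, 29.5, 30.4 and 47.6 CPM at 1 week. The 1-week library D lay inside the no-delay range, and the log2 fold change was -0.53 (standard error 0.13, limma adjusted p = 0.00771).

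The other 4 tested pores were not called. Cacna1e, the R-type pore and the most abundant of them, stood at 136 ± 12.0 CPM and 125 ± 5.59 CPM, with a log2 fold change of -0.11 (95% interval -0.27 to 0.04, limma adjusted p = 0.247). The other T-type pores, Cacna1g and Cacna1h, had log2 fold changes of -0.13 and -0.29 (limma adjusted p = 0.478 and 0.103), and the L-type pore Cacna1d had one of 0.05 (limma adjusted p = 0.739). The other L-type pore genes were hardly detected: Cacna1c had 2 reads in the no-delay group and 1 in the 1-week group, and Cacna1s had 2 and 7. Cacna1c is known as a cortical gene, and the rule by which tags were assigned to genes is not given in the sources used here.

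Beta subunits, which bind the pore from inside the cell, aid its transport to the membrane and shape its gating, had 3 lower genes of 4. Cacnb1, Cacnb3 and Cacnb4 fell, each with all 1-week libraries below all no-delay libraries, and Cacnb2 was not called. Their summed level was 527, 511, 561 and 541 CPM without delay and 387, 353, 404 and 435 CPM at 1 week, a mean lower by 26.2%. Cacnb1 stood at 157, 154, 161 and 170.04 CPM without delay and at 97.2, 90.0, 106 and 129 CPM at 1 week, and had the lowest log2 fold change of the 51 tested channel genes, -0.61 (standard error 0.10, limma adjusted p = 3.5e-04).

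Cacnb4, with the highest mean CPM of the 60 genes over both groups, went from 208, 201.3, 224 and 197 CPM to 154, 147, 167 and 156 CPM, a log2 fold change of -0.41 (standard error 0.06, limma adjusted p = 3.3e-04). Cacnb3 went from 140.2, 137, 153 and 148 CPM to 111, 94.8, 106 and 124 CPM, also -0.41 (standard error 0.08, limma adjusted p = 0.00158). In each of these 3 genes every single library at 1 week was lower than the lowest library without delay. Cacnb2, the least abundant of the 4, stood at 22.3 ± 2.95 CPM and 24.6 ± 2.21 CPM with a log2 fold change of 0.14 (95% interval -0.10 to 0.37, limma adjusted p = 0.341). Its share of beta subunit tags was 3.67% to 4.76% without delay and 6.03% to 6.64% at 1 week, a description with no test.

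The promoter sequences of the beta subunit genes are shown because 3 of the 4 moved together and the tags measured here come from transcript starts. The reference lists 2 starts each for Cacnb1, Cacnb2 and Cacnb3 and 3 for Cacnb4. Which of these starts the tags came from was not examined. Each line gives the 100 bases before the first RefSeq transcript start listed for the gene (GRCm38.p6, a later build than the mm9 named for the data), 5' to 3' on the gene's strand, with GC boxes (GGGCGG) and CCAAT boxes (CCAAT), sought on both strands, in capitals. The coordinates are chr11:98022628-98022727 on the minus strand for Cacnb1, chr2:14604206-14604305 on the plus strand for Cacnb2, chr15:98632228-98632327 on the plus strand for Cacnb3 and chr2:52676144-52676243 on the minus strand for Cacnb4.
Cacnb1: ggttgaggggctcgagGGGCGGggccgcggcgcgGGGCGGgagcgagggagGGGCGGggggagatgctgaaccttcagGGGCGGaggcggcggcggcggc
Cacnb2: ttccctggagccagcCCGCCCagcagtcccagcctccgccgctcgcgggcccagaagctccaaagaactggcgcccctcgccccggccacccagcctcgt
Cacnb3: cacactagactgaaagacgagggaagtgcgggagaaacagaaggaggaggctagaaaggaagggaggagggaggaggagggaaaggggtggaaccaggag
Cacnb4: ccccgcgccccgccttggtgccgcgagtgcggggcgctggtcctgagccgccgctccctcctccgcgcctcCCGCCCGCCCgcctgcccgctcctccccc

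The printed window of Cacnb3 held neither box, and the printed windows of the other 3 held a GC box whether the gene fell or not. Promoters of 250 bases before to 50 after the start were found for 47 of the 60 channel genes. In this longer window Cacnb3 held both a GC box and a CCAAT box, and it is counted so below. Of the 10 promoters of genes that fell, 7 held a GC box and 3 a CCAAT box, and of the 28 promoters of tested genes that were not called, 14 and 5 did. Over all 27025 promoters of that length these shares were 35.9% and 37.9%. The TATA box (TATAAA, both strands) was in 0 of the 10, in 3 of the 28 and in 14.2% of all promoters. Median GC content was 69.0% for the promoters of genes that fell, 57.8% for those of genes not called and 52.7% for all. These are descriptions of letters in a window and were not tested.

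Alpha2delta subunits, glycosylated proteins that raise the number of channels at the surface, gave 2 lower genes of 3. Cacna2d1, the binding site of gabapentin, stood at 135.6, 124.7, 142.4 and 134.5 CPM without delay and at 102, 96.1, 104 and 113 CPM at 1 week, without overlap (log2 fold change -0.37, standard error 0.07, limma adjusted p = 0.00106). Cacna2d2, a less abundant form, stood at 13.9, 11.4, 12.4 and 10.9 CPM without delay and at 11.35, 7.46, 8.5 and 8.06 CPM at 1 week, and only the 1-week library A lay inside the no-delay range. It was called lower (log2 fold change -0.43, standard error 0.13, limma adjusted p = 0.0235). That call was lost without either no-delay library A or C, or any of the 1-week libraries B, C or D (adjusted p from 0.0504 to 0.0729), and with neuron-marker scaling (adjusted p = 0.0706). Cacna2d3 stood at 126 ± 6.86 CPM and 113 ± 12.7 CPM and was not called (limma adjusted p = 0.164).

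The gamma family, whose members mostly act as transmembrane AMPA receptor regulatory proteins (TARPs) and not as calcium channel parts, split. Of 7 genes 5 were tested; 1 rose, 1 fell and 3 were not called. Cacng5, a type II TARP, had the highest log2 fold change of the 51 tested channel genes. It stood at 3.28, 4.94, 4.55 and 2.92 CPM without delay and at 8.82, 8.13, 11.6 and 7.74 CPM at 1 week. All 1-week libraries lay above all no-delay libraries, and the reads behind these values were 160 in the no-delay and 440 in the 1-week group. The ratio of means was 2.31 and the log2 fold change 1.04 (standard error 0.17, 95% interval 0.68 to 1.40, limma adjusted p = 4.0e-04).

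The Cacng5 promoter is shown because Cacng5 is the one calcium channel family gene that was called higher. The line gives the 100 bases before the first of 2 listed starts, at chr11:107915056-107915155 (GRCm38.p6, minus strand), with GC and CCAAT boxes in capitals as above.
Cacng5: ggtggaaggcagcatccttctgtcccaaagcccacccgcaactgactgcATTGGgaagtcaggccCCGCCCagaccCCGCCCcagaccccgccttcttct

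Cacng2, which encodes stargazin, the founding TARP, fell from 73.6, 65.3, 73.2 and 78.35 CPM to 60.03, 57.5, 58.6 and 65.7 CPM (log2 fold change -0.26, standard error 0.07, limma adjusted p = 0.0155). The groups overlapped only in the 1-week library D, which lay above the no-delay library B, and the call ended with neuron-marker scaling (adjusted p = 0.196). Cacng3, the most abundant of the family, stood at 74.8 ± 12.2 CPM and 75.5 ± 11.6 CPM (limma adjusted p = 0.931). Cacng7, the other type II TARP, had a log2 fold change of 0.10 (limma adjusted p = 0.284), and Cacng4 one of -0.19 (limma adjusted p = 0.294). Cacng8 had 19 reads in the no-delay and 13 in the 1-week group, Cacng6 had 1 and 3, and neither was tested.

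**Figure D2:**
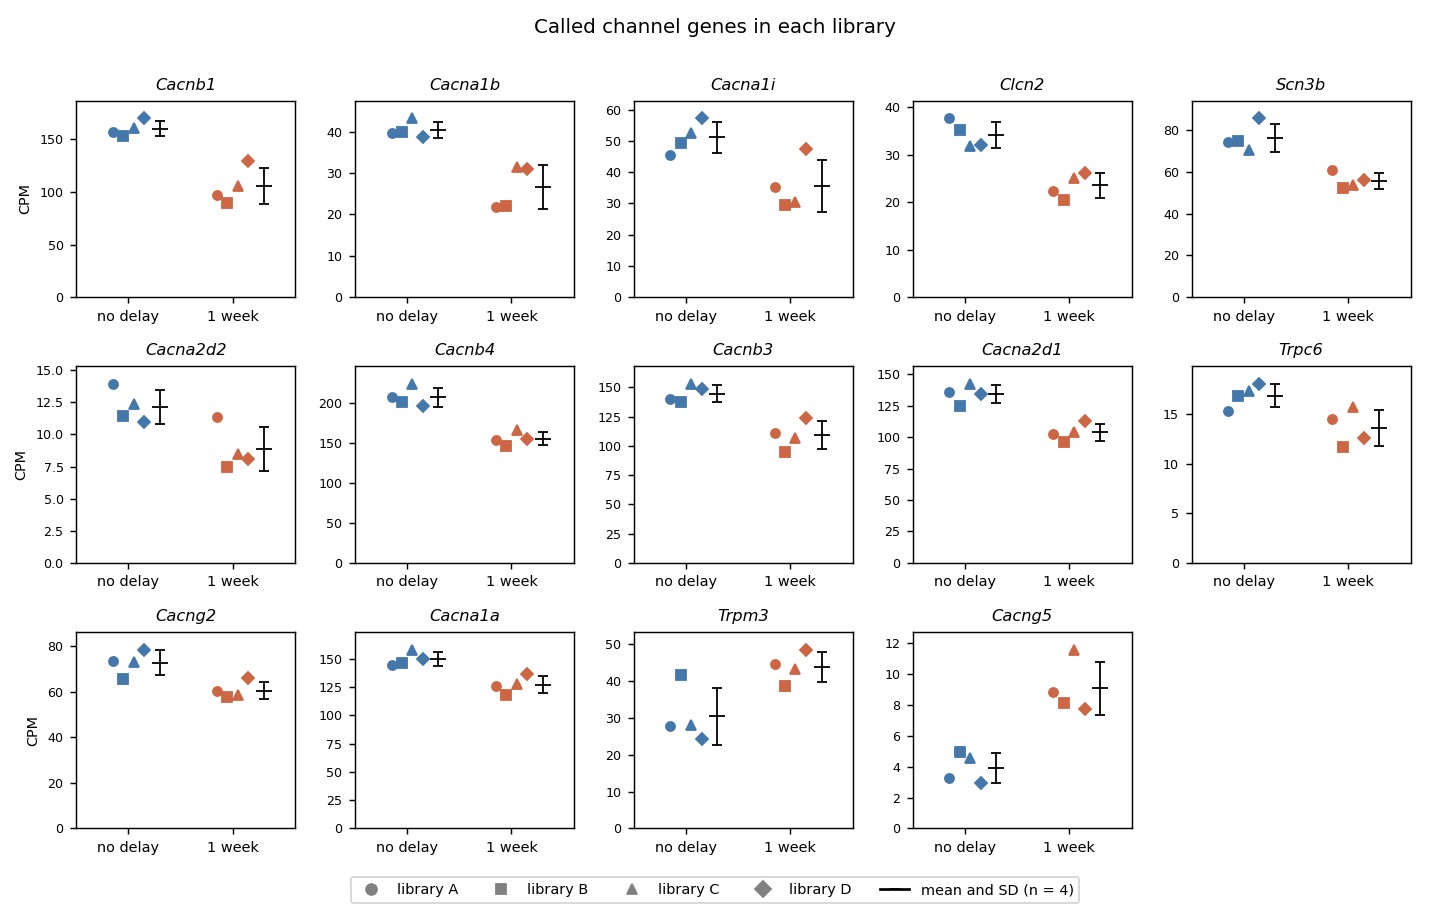
CPM (y axis, from 0) of 14 called channel genes in each library, by group (x axis), with the mean and SD (n = 4) beside the points; marker shapes give the library. Cacnb1, Cacnb3 and Cacnb4 have all 1-week libraries below all no-delay libraries, and for Trpm3 the no-delay library B (41.6 CPM) lies among the 1-week libraries.

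Of the sodium channel genes 1 fell, a beta subunit. Beta subunits here are single-pass membrane proteins that adjust gating and link the channel to adhesion molecules. Scn3b stood at 74.3, 74.8, 70.6 and 85.75 CPM without delay and at 61.1, 52.3, 54.0 and 56.0 CPM at 1 week, with no overlap. Its log2 fold change was -0.44 (standard error 0.08, limma adjusted p = 7.6e-04). Scn4b, tied to resurgent sodium current, had a mean of 66.5 ± 8.66 CPM without delay and 53.7 ± 7.73 CPM at 1 week, a log2 fold change of -0.31 with limma adjusted p = 0.0519. Across the 20 alternatives its adjusted p ran from 0.00919 to 0.209, and 9 of them called it lower, TMM scaling and both tests on whole reads included. Scn2b had a log2 fold change of 0.02 (limma adjusted p = 0.860).

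Of the 4 tested pores among the 9 sodium channel genes 0 were called by limma, by edgeR or by DESeq2, and 0 had an unadjusted limma p under 0.05. Of the alternatives, 2 called Scn7a lower, quantile normalization (adjusted p = 0.0105) and leaving out the 1-week library A (adjusted p = 0.0435). Scn2a1, the Nav1.2 pore that the naming pattern does not cover, was called lower (log2 fold change -0.21, limma adjusted p = 0.0490). Scn1a, the pore known from fast-spiking interneurons, stood at 121 ± 9.85 CPM and 118 ± 8.52 CPM, a log2 fold change of -0.04 (95% interval -0.21 to 0.13, limma adjusted p = 0.731). Scn3a, an embryonic form that persists at a lower level, was 26.8 ± 0.938 CPM and 24.9 ± 1.35 CPM (limma adjusted p = 0.307). Scn7a, a sodium-sensing channel, and Scn9a had log2 fold changes of -0.34 and 0.10 (limma adjusted p = 0.161 and 0.618). Scn8a, a main sodium channel of cortical axons, had 13 reads in the no-delay and 4 in the 1-week group, again near 0 for a gene known from this tissue.

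Of the HCN genes, Hcn2, Hcn3 and Hcn4 were not called. Hcn2, a form whose opening is strongly aided by cyclic AMP, was 46.2 ± 8.20 CPM and 46.8 ± 4.35 CPM (log2 fold change 0.03, 95% interval -0.22 to 0.28, limma adjusted p = 0.861). The less abundant Hcn3 did not overlap between the groups but was not called (log2 fold change -0.31, limma adjusted p = 0.0912), and Hcn4 had 1.68 ± 0.256 CPM and 1.32 ± 0.232 CPM (limma adjusted p = 0.308).

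Among chloride channel genes the plasma membrane channel fell and the genes of intracellular exchangers were not called. Clcn2, a channel opened by hyperpolarization in neurons and glia, stood at 37.6, 35.1, 31.9 and 32.0 CPM without delay and at 22.2, 20.54, 25.1 and 26.1 CPM at 1 week, with no overlap (log2 fold change -0.52, standard error 0.10, limma adjusted p = 0.00104). In the reference annotation (GENCODE M21) Clcn2 overlaps Polr2h and Fam131a, which lie on the opposite strand, and the use of strand in counting is not given in the sources used here. Polr2h was 31.8 ± 2.04 CPM and 33.7 ± 1.61 CPM and Fam131a was 188 ± 20.3 CPM and 187 ± 25.2 CPM, and neither was called. Clcn3, Clcn4-2, Clcn5, Clcn6 and Clcn7, the endosomal and lysosomal forms, had log2 fold changes from -0.09 to 0.14. Of these 5, 0 were called by limma, edgeR or DESeq2, and 1, Clcn7, had an unadjusted limma p under 0.05. Clcn4-2, the most abundant of them, stood at 172 ± 20.1 CPM and 176 ± 12.9 CPM (95% interval of the log2 fold change -0.15 to 0.23, limma adjusted p = 0.758).

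Clcn7, the lysosomal exchanger, was the only one of these 5 without overlap, from 62.5, 62.55, 64.35 and 59.0 CPM to 65.95, 72.5, 70.65 and 65.3 CPM. Its log2 fold change of 0.14 was not called (limma adjusted p = 0.106), and it was called higher with neuron-marker scaling (adjusted p = 0.0137).

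TRP channel genes mostly stayed uncalled: 14 of the 17 were tested, of which 1 rose and 1 fell. Trpm3, a channel opened by heat and by the steroid pregnenolone sulfate and known from neurons, glia and choroid plexus, rose. It stood at 27.7, 41.6, 27.9 and 24.4 CPM without delay and at 44.45, 38.65, 43.2 and 48.5 CPM at 1 week. The no-delay library B was high and overlapped the 1-week group, while the other 3 no-delay libraries lay below every 1-week library. The log2 fold change was 0.53 (standard error 0.14, limma adjusted p = 0.00937), and without the library B it was 0.69 (adjusted p = 2.6e-04).

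The library B of the no-delay group also held Ttr, the transthyretin gene that marks choroid plexus, at 104 CPM, where the others stood at 0, 0.20 and 0 CPM and all 1-week libraries at 0 CPM. Kl, another choroid plexus gene, stood at 0.20, 1.28, 1.58 and 0.52 CPM without delay and ranged from 0.14 to 0.65 CPM at 1 week. Its highest no-delay library was C, not B. Foxj1, the ciliated ependyma marker and the only one of the list that was tested, rose from 0.77 ± 0.549 CPM to 3.23 ± 0.769 CPM (log2 fold change 1.30, limma adjusted p = 8.8e-04), with all 1-week libraries above all no-delay libraries. All 3 markers listed for choroid plexus and ependyma summed to 0.62 to 107 CPM without delay and to 2.64 to 4.47 CPM at 1 week, and their part in the levels of Trpm3 and Trpv4 was not tested. Trpv4, an osmosensitive channel of choroid plexus, glia and endothelium, had the same high library. It stood at 1.02, 2.74, 1.78 and 1.35 CPM without delay and at 2.66, 4.21, 2.07 and 2.69 CPM at 1 week, and was not called (log2 fold change 0.53, limma adjusted p = 0.0704). Without the library B its log2 fold change was 0.70 and it was called (adjusted p = 0.0229).

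Canonical TRP channels (TRPC), which open downstream of phospholipase C, had 1 lower gene of 7. Trpc6 stood at 15.3, 16.8, 17.3 and 18.0 CPM without delay and at 14.5, 11.7, 15.7 and 12.5 CPM at 1 week, with 1 1-week library, C, above the lowest no-delay library (log2 fold change -0.30, limma adjusted p = 0.0499). That call held in 10 of 20 alternatives. It ended when any one of 6 libraries was left out, no-delay B, C or D or 1-week A, B or D (adjusted p from 0.0561 to 0.146). Trpc1, the most abundant of the 6 not called, was 17.8, 29.4, 24.45 and 16.6 CPM without delay and 16.8, 14.85, 16.1 and 16.2 CPM at 1 week. Its no-delay libraries spread widely while the 1-week libraries did not, and its limma adjusted p was 0.0556; it was called lower in 8 of 20 alternatives. The other 5 had log2 fold changes from -0.21 to 0.16; of these, Trpc2 shares its place in the annotation with Xndc1 and Xntrpc on the same strand, so its tags cannot be assigned to it with certainty.

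The melastatin-type genes other than Trpm3 were not called. Trpm7, a channel with a kinase domain and the most abundant of them, stood at 64.6 ± 4.45 CPM and 68.4 ± 3.10 CPM (log2 fold change 0.08, 95% interval -0.07 to 0.23, limma adjusted p = 0.380). Trpm2, opened by ADP-ribose under oxidative stress and known from microglia, was 23.8 ± 2.86 CPM and 27.3 ± 1.70 CPM (limma adjusted p = 0.131). Trpm4 had a log2 fold change of -0.19 (limma adjusted p = 0.241). Below the filter, Trpm6, a magnesium-conducting relative of Trpm7, had 7 reads in the no-delay and 27 in the 1-week group. This gives a ratio of pooled reads per depth of 3.24 (counting interval at 95% from 1.38 to 8.81). The groups did not overlap, and without a filter limma called Trpm6 (adjusted p = 0.0133). The interval covers counting error only and leaves out the spread between libraries. By the same measure Scn8a had a ratio of 0.258 (0.0614 to 0.837) and Trpm8 one of 0.168 (0.0179 to 0.788). Without a filter limma called neither of these (adjusted p = 0.126 and 0.237).

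Vanilloid-type genes Trpv2, a channel of macrophages and neurons, and Trpv6, an epithelial calcium channel, were not called, with log2 fold changes of 0.09 and -0.39 (limma adjusted p = 0.540 and 0.112). Trpa1 had 1 read without delay and 0 at 1 week, and Trpm8, the cold receptor, had 10 and 2. These low counts limit what can be seen: a gene at 0 reads in a library may hold up to 0.362 CPM in the shallowest.

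**Figure D3:**
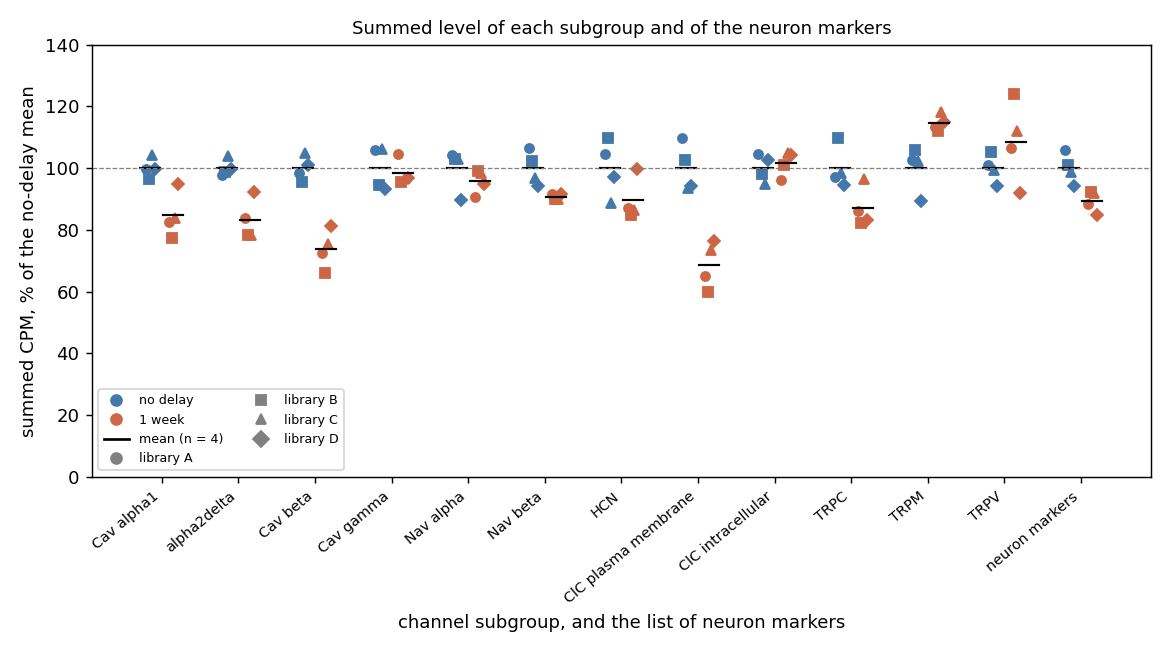
Summed CPM of each subgroup of channel genes, and of the 10 neuron markers, in each library (y axis, as % of the no-delay mean, from 0); bars are means (n = 4) and shapes give the library. The calcium channel beta subunits (Cav beta) lie lowest among the subgroups with more than 1 tested gene, lower by 26.2% on average. The neuron markers are lower by 10.6% in sum. Most of that sum came from Snap25 and Syt1, and single neuron markers ran from 22.0% lower (Elavl4) to 8.51% higher (Stmn2).

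Summed over each family, calcium channel genes went from 1468 ± 51.9 CPM to 1210.5 ± 82.1 CPM, lower by 17.5%, and the groups did not overlap. Sodium channel genes went from 638 ± 36.0 CPM to 587 ± 2.87 CPM, also without overlap. HCN genes were lower by 10.4%, chloride channel genes lower by 0.666% and TRP channel genes higher by 3.52%, each with overlapping groups. The neuron markers were lower by 10.6% in sum, and no test was made between these sums. Most of the neuron sum, 7360 CPM on average without delay, came from Snap25 (3339 CPM) and Syt1 (1518 CPM). Gene by gene these markers were mixed, with a median log2 fold change of -0.10. Of the 10, 7 had a negative log2 fold change, among them Elavl4, Rbfox3 and Syt1 (-0.36, -0.32 and -0.20), which were called lower. Tubb3, Eno2 and Stmn2 had positive ones (0.07, 0.09 and 0.11, not called). Among calcium channel subunits the intracellular beta subunits were lower by 26.2%, the alpha2delta subunits by 16.9%, the pores by 15.3% and the gamma family by 1.52%.

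Genes that work with these channels were taken from a list of 79, of which 72 were in the table and 66 tested: 16 rose, 24 fell and 26 were not called, with a median log2 fold change of -0.08. Over all tested genes 23.4% were called higher and 13.4% lower, and the shares of the partner genes were not tested against these. Of 12 tested sodium channel partners and relatives 5 fell and 1 rose. Scn2a1 stood at 137 ± 9.33 CPM and 119 ± 9.68 CPM. Fgf13, an intracellular sodium channel modulator, and Unc80, a subunit of the leak channel complex, had log2 fold changes of -0.42 and -0.45. Ank2, an ankyrin scaffold, rose by 0.21 (limma adjusted p = 0.0444), and the leak channel pore Nalcn was not called.

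Of 21 tested genes for calcium channel partners, calcium release and AMPA receptor auxiliary subunits, 9 fell and 6 rose. The AMPA receptor auxiliary genes Cnih2, Cnih3 and Shisa9 were among those that fell. Itpr2 and Orai1 were among those that rose (log2 fold changes 1.06 and 0.56). Rims1, an active zone protein that binds calcium channels, went from 183 ± 10.6 CPM to 122 ± 15.6 CPM (log2 fold change -0.59, limma adjusted p = 2.3e-04). Cnih2, an auxiliary subunit of AMPA receptors like the TARPs, had the lowest value, with a log2 fold change of -1.11 (limma adjusted p = 9.0e-05). Among the RGK proteins, small GTPases that inhibit calcium channels by way of their beta subunits, Gem and Rrad rose (log2 fold changes 1.34 and 0.69), Rem2 fell (-1.02) and Rem1 was not called. Gem stood at 3.48, 2.29, 1.49 and 1.98 CPM without delay and at 6.04, 7.39, 8.07 and 7.41 CPM at 1 week, without overlap.

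Both tested HCN partners fell. Pex5l, which encodes the trafficking subunit TRIP8b, went from 259 ± 14.1 CPM to 196 ± 7.42 CPM (log2 fold change -0.40, limma adjusted p = 2.9e-04), and Kctd3 had a log2 fold change of -0.71 (limma adjusted p = 7.2e-05). Of 18 tested chloride channel partners and other chloride carriers 5 rose and 4 fell. Hepacam, which encodes the ClC-2 subunit GlialCAM of astrocytes, and Mlc1, whose protein binds GlialCAM, rose with log2 fold changes of 0.67 and 1.38, as did all 8 astrocyte markers. Of 6 tested TRP relatives and partners 2 fell and 1 rose, with Homer1 at -0.80. Among other sodium and proton channels 3 rose and 2 fell of 7, and Hvcn1, the proton channel of phagocytes, went from 1.49 ± 0.278 CPM to 15.4 ± 2.81 CPM (log2 fold change 2.71, limma adjusted p = 8.3e-08), beside the rise of all 7 microglia markers.

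**Figure D4:**
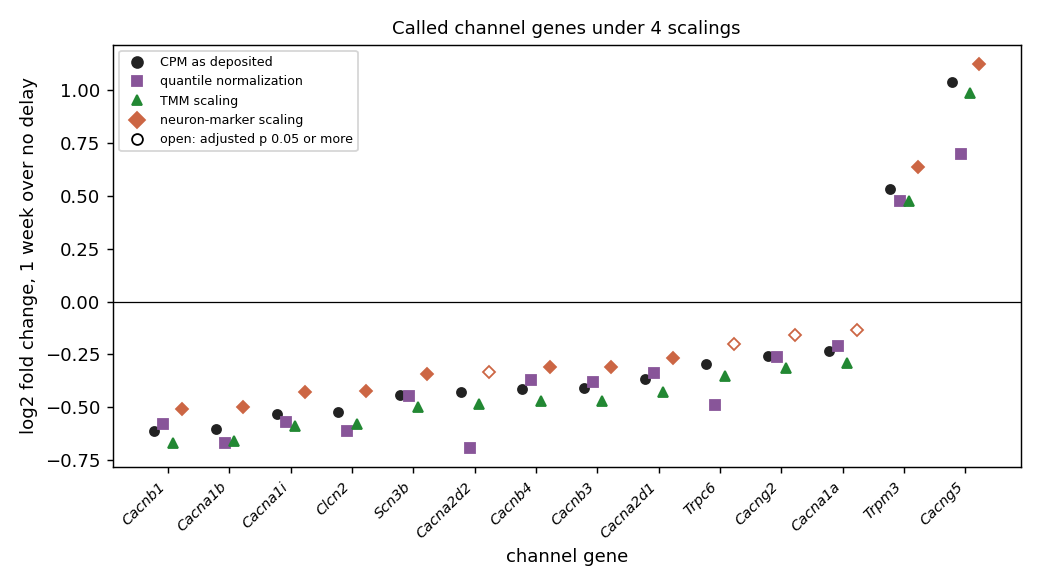
Log2 fold change (y axis) of 14 called channel genes (x axis) with CPM as deposited, quantile normalization, TMM scaling and neuron-marker scaling; open symbols have an adjusted p of 0.05 or more. All 14 kept their direction under these 4 scalings, and 4 lower genes were not called with neuron-marker scaling.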

How the data were processed

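CAGE was run on 4 no-delay and 4 1-week samples. Sequencing gave 75 nt single-end reads, per the labels' protocols. BWA 0.5.9 and the mouse build mm9 are named, per the submitters' processing notes. How tags were assigned to genes is not given in the sources used here. For each gene and library the authors deposited 1 CPM value. These are whole multiples of 1 read (100% within 0.1 reads for genes under 1000 reads), so whole reads were recovered. Column names give the group but no replicate number.

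Log2(CPM + 1) values were tested with limma 3.58.1 under R 4.3.3, 2-sided and with the variance following a trend with level, for 14718 genes with 1 CPM or more in at least 4 libraries; 2926 genes were not tested. EdgeR 4.0.16 and DESeq2 1.42.0 on whole reads were alternatives, and the procedure was tested on simulated data. Named genes are the called channel genes and, per subgroup, the uncalled one with the highest mean; further uncalled genes were added after their values were seen. A few genes are not reported here, and they are left out of the figures of single genes but stay in counts and sums. The members and lists were chosen with earlier results of these data known. No channel gene with 50 reads or more had the same reads as another gene in every library. Of the partner and marker genes, 5 were matched by an older symbol. Alternatives were other pseudocounts, filters, scalings and weights, and each library left out in turn with the same genes tested. Promoters came from RefSeq (GRCm38.p6) by symbol.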

Additional observations from a re-analysis of the deposited data

Results flagged for a closer look

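In 102 groups of 4 libraries, 2 for each tested channel gene, the library farthest out was compared with the spread of the others (Dixon's criterion). It stood out in 4 groups, and chance flags about 1 in 20 groups. The no-delay library D was lowest for Scn1a, at 106 CPM with the others at 125 to 127 CPM, and for Trpc4, at 16.4 CPM with the others at 18.4 to 18.6 CPM. The 1-week library C was highest for Trpc4, at 20.4 CPM with the others at 16.3 to 16.7 CPM. The no-delay library A was highest for Scn9a, at 1.84 CPM with the others at 1.46 to 1.49 CPM. None of these 3 genes was called.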

How the results depend on the processing

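No paired analysis was possible because the columns carry no replicate number. In 20 alternatives, 1 of them (neuron-marker scaling) chosen after seeing the data, of 1015 values of single channel genes 957 stayed on their side of the threshold, 21 lost a call and 37 gained one. The sign changed for 0 called genes and, in 56 values, for 15 uncalled ones, whose log2 fold changes were at most 0.16 in size. In all 20 the lower genes Cacna1b, Cacna1i, Cacna2d1, Cacnb1, Cacnb3, Cacnb4, Clcn2 and Scn3b and the higher genes Cacng5 and Trpm3 kept their calls. Quantile normalization, which moved the median of all genes by -0.10, gave 24 lower channel genes, with 3 HCN, 3 sodium and 6 TRP genes. Its medians were -0.24 (all), -0.45 (HCN), -0.24 (sodium) and -0.24 (TRP). The families did not shift by the same amount: the calcium median went from -0.23 to -0.26, and the HCN median from -0.24 to -0.45. TMM scaling, median-of-ratios scaling, edgeR and DESeq2 each gave 2 lower sodium and 2 lower TRP genes, with medians over all channel genes of -0.18, -0.19, -0.18 and -0.19. The sodium median was -0.18 by median-of-ratios scaling, -0.17 by edgeR and -0.18 by DESeq2, and the HCN median was -0.38 by edgeR and -0.39 by DESeq2. Library weights gave 2 lower sodium genes, a pseudocount of 5 CPM gave 0 lower TRP genes, and no filter gave 0 lower and 2 higher TRP genes. Neuron-marker scaling gave 8 lower and 5 higher channel genes, with 0 lower HCN, 0 lower and 3 higher TRP and 1 higher chloride gene, and medians of -0.034 (all), -0.13 (calcium), 0.12 (chloride), -0.0084 (sodium) and 0.061 (TRP), where that of all genes was 0.16. For these changes the cause was not tested. Leaving out 1 library at a time gave 11 to 14 lower and 2 to 3 higher channel genes, 1 to 3 lower sodium, 0 to 1 lower HCN, 0 to 2 lower and 1 to 2 higher TRP genes. Genes near or under 1 CPM rest on few reads, so differences in the 9 untested genes were mostly not detectable at this depth.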
